A study of Mus musculus with 6 samples.

Results

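The genes of the mitochondrial genome are the 37 genes in the deposited table whose symbols begin with mt-, out of 55487 genes in all. They comprise 13 mRNAs, 2 rRNAs and 22 tRNAs, and the rule that picks them uses the gene name and no measured value. They were measured by bulk RNA-seq in 6 libraries of marginal zone (MZ) B cells, the innate-like B cells at the border of the splenic white pulp. CD55KO mice, which lack CD55 (decay-accelerating factor, a membrane protein that limits complement activation), gave 3 libraries, and wild-type (WT) C57BL/6 mice gave 3. All mice were 14 weeks old, and MZ B cells were flow-sorted after B cells had been enriched by negative selection. The labels give neither the strain background of the CD55KO mice nor the making of the CD55KO allele. They also do not say whether each library came from its own mouse or from a pool. Every p-value here therefore speaks of library-to-library spread, which may be technical.

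Mitochondrial DNA is a small circular genome whose mRNAs encode core subunits of respiratory complexes I, III and IV and of the ATP synthase (complex V), the machinery of oxidative phosphorylation. Both strands are transcribed by the polymerase POLRMT into long transcripts, which are cut mainly at the tRNAs that punctuate them, so that neighbouring genes begin in the same precursor. Most of the mRNAs then receive poly(A) tails and the rRNAs short ones, while the tRNAs receive none. All other proteins of the organelle, complex II and the protein part of the mitochondrial ribosome included, are encoded in the nucleus.

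Total counts were 24961311 to 29209592 in the CD55KO libraries and 20056064 to 30784031 in the WT libraries. Cd55 checked the labels: it had 8.95, 6.23 and 7.42 CPM (total counts scaled by TMM, edgeR's normalization, to 1e6) in CD55KO libraries, against 125, 119 and 110.0 CPM in WT libraries. The B cell marker Cd79a had 3556 to 3715 CPM (markers and sums are given without TMM scaling) in CD55KO libraries and 3319 to 3939.8 CPM in WT libraries. The 8 MZ markers, such as Cr2 and Cd1d1, summed to 4171 to 4360 CPM in CD55KO libraries and 4172 to 4197 CPM in WT libraries. The 6 T cell markers summed to 1.199, 0.961 and 1.47 CPM in CD55KO libraries and 0.499, 0.585 and 0.890 CPM in WT libraries, so the genotypes did not overlap at this low level. Cd3e had at most 1 count in a library, Cd3d 4 to 22 counts and Trac 4 to 15. Cd3d and Trac, the 2 tested, had log2 fold changes of 1.08 ± 0.57 and 0.62 ± 0.53 (SE; adjusted p = 0.641 and 0.821, edgeR), and their part in the results that follow was not tested. The 8 macrophage markers summed to 19.1 to 24.6 CPM in CD55KO libraries and 14.8 to 21.5 CPM in WT libraries. Of the 6 tested, 2 had a log2 fold change above 0. Among these, Cd68 (0.45 ± 0.12, SE, adjusted p = 0.209, edgeR) had libraries that did not overlap, as did 14.1% of all genes tested. Globin and other erythroid transcripts varied most, with sums of 2025, 1567 and 34.7 CPM in CD55KO libraries and 4441, 361 and 101 CPM in WT libraries. They did not follow genotype, and in both genotypes they fell from replicate 1 to replicate 3. Among plasma cell and germinal centre markers, Xbp1 and Gcsam were lower in CD55KO libraries (log2 fold changes −0.59 ± 0.090 and −1.81 ± 0.36, SE; adjusted p = 0.00471 and 0.0343, edgeR quasi-likelihood test).

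Mitochondrial genes took a small and variable share of each library, and the difference between genotypes was smaller than that variation. The 37 genes together took 2.93, 2.07 and 2.64% of all counts in CD55KO libraries, against 2.02, 2.65 and 2.29% in WT libraries. The means were 2.55 ± 0.438% in CD55KO and 2.32 ± 0.315% in WT (SD, n = 3 each), and the libraries of the genotypes interleaved (exact two-sided permutation test, p = 0.5; 3 libraries against 3 cannot give a p below 0.10). The difference, 0.223 percentage points, rested on single libraries: it was 0.0324 without CD55KO replicate 1, 0.462 without CD55KO replicate 2, 0.0747 without WT replicate 1 and 0.388 without WT replicate 2. Most of this was mRNA. The 13 mRNAs accounted for 2.24, 1.605 and 2.18% of all counts in CD55KO libraries and for 1.54, 2.18 and 1.83% in WT libraries (exact permutation test, p = 0.5). That difference, 0.157 points, was 0.00365 without WT replicate 1 and 0.360 without CD55KO replicate 2. CD55KO replicate 2 and WT replicate 1 were the low libraries of their genotypes. WT replicate 1 also had the fewest total counts and the highest erythroid sum, and the part of either in the share was not tested.

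The 2 rRNAs took 0.686, 0.463 and 0.457% of all counts in CD55KO libraries and 0.480, 0.470 and 0.458% in WT libraries. CD55KO replicate 1 stood above the other 5 libraries, which lay within 0.457 to 0.480%. The difference of means, 0.066 percentage points higher in CD55KO (exact permutation test, p = 0.9), turned to −0.0097 points without that library. CD55KO replicate 1 was also the library with the most Malat1, a nuclear-retained RNA, at 7418 CPM without TMM scaling, against 4344 to 5662 in the other 5 libraries. It had the highest sum of the 4 follicular B cell markers as well, at 971 CPM against 768 to 838 in the other 5. The part of either in the rRNA share was not tested. The 22 tRNAs together had 28, 28 and 25 counts in CD55KO libraries and 23, 42 and 24 counts in WT libraries (exact permutation test, p = 0.6). Counting error was small for the first 2 classes and not for the tRNAs: exact binomial 95% intervals of the total share were at most 0.0128 percentage points wide, while WT replicate 2 had 1.36 tRNA CPM with an interval of 0.983 to 1.84. Adjusted over the 7 shares and ratios compared, every p was 1. In bulk RNA, more mitochondrial transcripts per cell and a different mix of cells in the sort cannot be told apart.

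**Figure D1:**
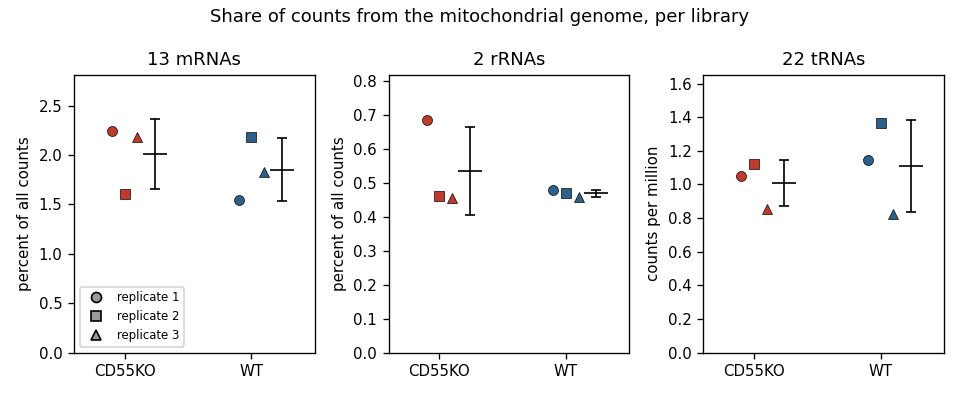
Share of all counts (percent, or CPM for tRNAs) taken by the mitochondrial mRNAs, rRNAs and tRNAs in each library, CD55KO left of WT. Each symbol is a library, its shape gives the replicate number, and black marks are group means with SD (n = 3 each); the libraries of the genotypes interleave in the mRNAs, and CD55KO replicate 1 stands alone in the rRNAs at 0.686%.

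No mitochondrial gene passed the test between CD55KO and WT libraries, and for each of the 13 mRNAs the highest and lowest replicates of either genotype lay further apart, as a ratio, than the genotype means. Of the 37, 16 had enough counts to be tested (the 13 mRNAs, both rRNAs and mt-Tq), and the quasi-likelihood test of edgeR called 0 of these at an adjusted p of 0.05. Of all 13794 genes tested it called 0.399%, with 0.138% higher and 0.261% lower in CD55KO libraries. DESeq2 and limma-voom likewise called 0 of them, against 0.993% and 0.362% of all genes. None had an unadjusted p under 0.05, against 8.60% of all genes, and none had CPM values that kept the genotypes apart, against 14.1% of all genes. All 13 mRNAs had a log2 fold change above 0, with a median of 0.15 and a range of 0.01 to 0.25, whereas 50.4% of all genes lay above 0 and their median was 0.0015. The median over the 13 was 0.01 without WT replicate 1, 0.03 without CD55KO replicate 3, 0.07 without CD55KO replicate 1, 0.26 without WT replicate 2 and 0.30 without CD55KO replicate 2. These 13 values come from the same 6 libraries and move together within each, so they are not 13 separate measurements, and those of mt-Co1, mt-Co3, mt-Nd4l and mt-Cytb changed sign when certain single libraries were left out. The 95% intervals reached from −0.76 to 0.93 over the 13 mRNAs, so changes smaller than about that size were not detectable for the least precise of them.

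The 3 largest of the 13 fold changes, none past the threshold, were those of the complex I mRNAs mt-Nd1, mt-Nd5 and mt-Nd3. mt-Nd1, a core membrane subunit, had 1506, 1086 and 1442 CPM in CD55KO libraries, against 914, 1294 and 1190.1 CPM in WT libraries (log2 fold change 0.25 ± 0.15, SE; adjusted p = 0.724, edgeR). WT replicate 2 lay above CD55KO replicate 2. mt-Nd5, one of the antiporter-like subunits that form the proton channels of the complex, had 1158, 800.0 and 1134 CPM in CD55KO libraries and 739.6, 1013 and 918 CPM in WT libraries (0.21 ± 0.16; adjusted p = 0.795, edgeR). mt-Nd4, another antiporter-like subunit, had 892, 618 and 927 CPM in CD55KO libraries and 591, 855 and 767 CPM in WT libraries. The antiporter-like subunit mt-Nd2 had 524, 348 and 543 CPM in CD55KO libraries and 326, 492 and 445 CPM in WT libraries. In each of these genes CD55KO replicate 2 fell below at least 2 WT libraries. The small membrane subunits mt-Nd3 and mt-Nd4l were, with mt-Nd6, the scarcest per kilobase. mt-Nd3 had 140.2, 105 and 169.97 CPM in CD55KO libraries and 88.0, 143 and 128 CPM in WT libraries. mt-Nd4l had 96.6, 61.7 and 88.3 CPM in CD55KO libraries and 57.1, 95.3 and 92.9 CPM in WT libraries, with a log2 fold change of 0.01 ± 0.29 (SE; adjusted p = 0.999, edgeR). It had the smallest fold change and the largest error of the 13. mt-Nd6, the membrane subunit encoded on the opposite strand to the other mRNAs, had 189.8, 122 and 167 CPM in CD55KO libraries and 129, 159 and 141 CPM in WT libraries.

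mt-Cytb, the cytochrome b of complex III, had 3052, 2106 and 3135 CPM in CD55KO libraries and 2055, 2965 and 2725.5 CPM in WT libraries. Among the catalytic subunits of cytochrome c oxidase (complex IV), mt-Co1, which holds its haem centres, had 3651, 2859 and 3511 CPM in CD55KO libraries and 2696, 3690.1 and 3318.5 CPM in WT libraries (log2 fold change 0.05 ± 0.12, SE; adjusted p = 0.966, edgeR). It had the smallest error of the 13 mRNAs. mt-Co2, which accepts electrons from cytochrome c, had 2292, 1843 and 2587.5 CPM in CD55KO libraries and 1694, 2361 and 2037 CPM in WT libraries. mt-Co3, the most abundant mRNA per kilobase, had 5573, 4323 and 5937 CPM in CD55KO libraries and 3809, 5816 and 5024 CPM in WT libraries (0.11 ± 0.17; adjusted p = 0.916, edgeR). For mt-Co2 and mt-Co3 alike, WT replicate 2 lay above 2 of the CD55KO libraries. The ATP synthase subunits mt-Atp6, part of the proton channel, and mt-Atp8 had fold changes alike: mt-Atp6 had 2282, 1562.5 and 2162 CPM in CD55KO libraries and 1609.7, 2031 and 1762 CPM in WT libraries. mt-Atp8 had 559, 373 and 537 CPM in CD55KO libraries and 342, 523 and 453 CPM in WT libraries. Over the 13 mRNAs, the highest CD55KO library was 1.28 to 1.62 times the lowest, and the highest WT library 1.23 to 1.67 times the lowest. CD55KO replicate 1 was the highest library for 6 mRNAs, CD55KO replicate 3 for 6 and WT replicate 2 for 1. WT replicate 1 was the lowest for 11 mRNAs and CD55KO replicate 2 for 2.

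**Figure D2:**
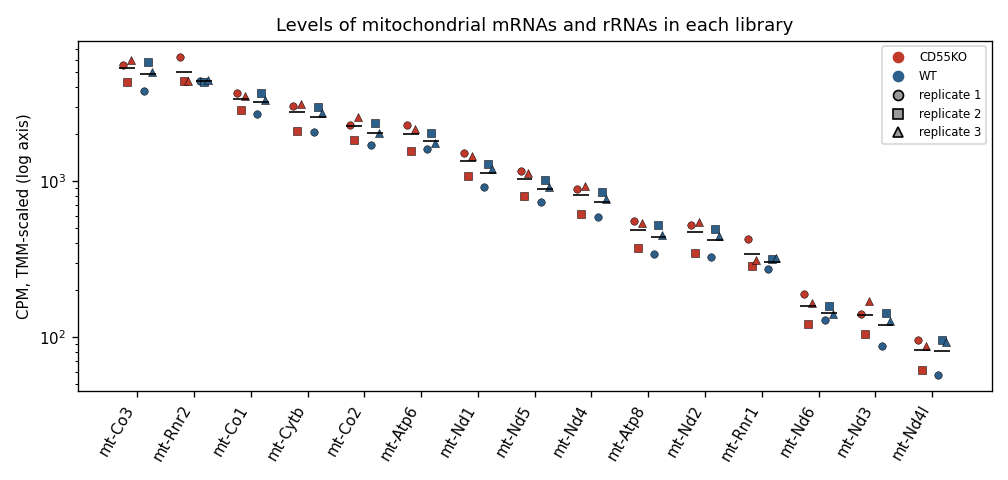
TMM-scaled CPM (log axis) of the 13 mRNAs and 2 rRNAs in each library, CD55KO left of WT for each gene, with a line at each group mean. The libraries of the genotypes overlap for each of the 15 genes; mt-Co3, for one, lies at 4323 to 5937 CPM in CD55KO and 3809 to 5816 CPM in WT.

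**Figure D3:**
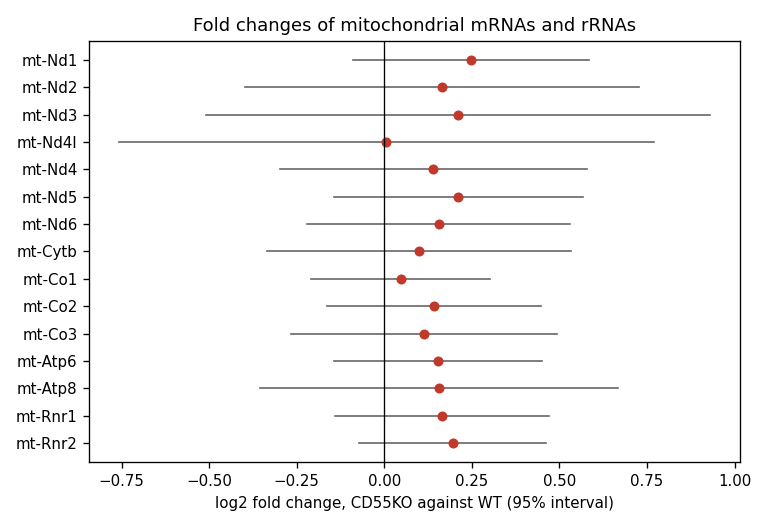
Log2 fold change of CD55KO over WT with its 95% confidence interval (edgeR) for the 13 mRNAs and 2 rRNAs. The 13 mRNA estimates lie between 0.01 and 0.25 and every interval includes 0.

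The rRNAs form the core of the mitochondrial ribosome. mt-Rnr2, the 16S rRNA of its large subunit, had 6289, 4386 and 4366 CPM in CD55KO libraries, against 4401, 4307 and 4434 CPM in WT libraries (log2 fold change 0.19 ± 0.12, SE; adjusted p = 0.736, edgeR). mt-Rnr1, the 12S rRNA of the small subunit, had 426, 285 and 311 CPM in CD55KO libraries and 274, 316 and 321 CPM in WT libraries (0.16 ± 0.14; adjusted p = 0.821, edgeR). For both, the excess lay in CD55KO replicate 1, without which the fold changes were −0.00050 and −0.03. The 16S rRNA gave 14.8, 15.4 and 14.1 counts per count of 12S rRNA in CD55KO libraries and 16.1, 13.6 and 13.8 in WT libraries (exact permutation test, p = 0.8). The rRNAs gave 0.306, 0.288 and 0.209 counts per mRNA count in CD55KO libraries and 0.311, 0.216 and 0.2503 in WT libraries (exact permutation test, p = 1). These ratios hold for what the library kit captures, which starts cDNA at poly(A), and not for all rRNA in the cell.

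Within the 13 mRNAs, the profile was steadier from library to library than the total. Each mRNA's percent of their summed counts varied 1.07-fold (mt-Co3) to 1.30-fold (mt-Nd3) between the highest and the lowest of the 6 libraries, while the CPM varied 1.37-fold (mt-Co1) to 1.93-fold (mt-Nd3). Counts per kilobase allow for gene length, but not for differences between genes in capture by a kit that starts cDNA at poly(A). On this measure mt-Co3 held 28.3% of the 13 mRNAs on average over the 6 libraries. It was followed by mt-Co2 with 13.7%, mt-Atp6 with 12.2%, mt-Cytb with 10.2%, mt-Atp8 with 9.90% and mt-Co1 with 9.35%. The complex I mRNAs filled the lower places: mt-Nd1 5.65%, mt-Nd4 2.45%, mt-Nd5 2.30%, mt-Nd2 1.87%, mt-Nd3 1.61%, mt-Nd6 1.28% and mt-Nd4l 1.20% of the per-kilobase sum. From the scarcest to the most abundant this was a 23.6-fold range, although 12 of the 13 lie on the same strand. Neighbours in this order whose libraries overlapped were mt-Co2 with mt-Atp6, mt-Cytb with mt-Atp8, mt-Atp8 with mt-Co1, mt-Nd4 with mt-Nd5, mt-Nd2 with mt-Nd3, and mt-Nd6 with mt-Nd4l. CPM per kilobase, without TMM scaling, averaged 6473 for mt-Co3, 2972 for mt-Rnr2 and 337 for mt-Rnr1. The place of the 16S rRNA among the mRNAs changed with the library: mt-Rnr2 lay above mt-Co2 in CD55KO replicate 1 (4064 against 3425) and below it in CD55KO replicate 3 (2698 against 3698).

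Between genotypes, 2 of the 13 mRNAs had relative levels that did not overlap, which is close to the 14.1% of all genes that did so by CPM. mt-Nd1 made up 6.87, 6.70 and 6.46% of the 13 mRNA counts in CD55KO libraries, against 6.08, 6.03 and 6.26% in WT libraries, a difference of 0.55 percentage points (exact permutation test, p = 0.1, the smallest possible; 0.65 adjusted over the 13). mt-Nd5 made up 5.28, 4.94 and 5.08% in CD55KO libraries, against 4.91, 4.72 and 4.83% in WT libraries (exact permutation test, p = 0.1; 0.65 adjusted). For mt-Nd5 the lowest CD55KO library and the highest WT library, at 4.94 and 4.91%, were nearly level. The 7 complex I mRNAs summed, mt-Nd1 and mt-Nd5 included, gave 20.6, 19.38 and 20.02% in CD55KO libraries and 18.9, 18.9 and 19.37% in WT libraries. For this sum the exact permutation test gave p = 0.1, or 0.4 adjusted over the 4 complexes. Here too the lowest CD55KO library and the highest WT library, at 19.38 and 19.37%, were nearly level. Complex IV made up 54.0 ± 1.57% in CD55KO and 54.8 ± 0.471% in WT, complex III 13.7 ± 0.573% and 13.9 ± 0.359%, and complex V 12.3 ± 0.553% and 12.2 ± 0.693% (SD, n = 3 each). mt-Nd6, the sole mRNA of the other strand, made up 0.866, 0.753 and 0.746% of the 13 in CD55KO libraries and 0.858, 0.743 and 0.743% in WT libraries (exact permutation test, p = 0.5). Replicate 1 of both genotypes was higher than the other 4 libraries. The kit does not mark strand, so reads of mt-Nd6 and of antisense RNA from the precursor across it cannot be told apart, nor those of mt-Nd5 and mt-Nd6 in the 14 bases where they overlap.

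**Figure D4:**
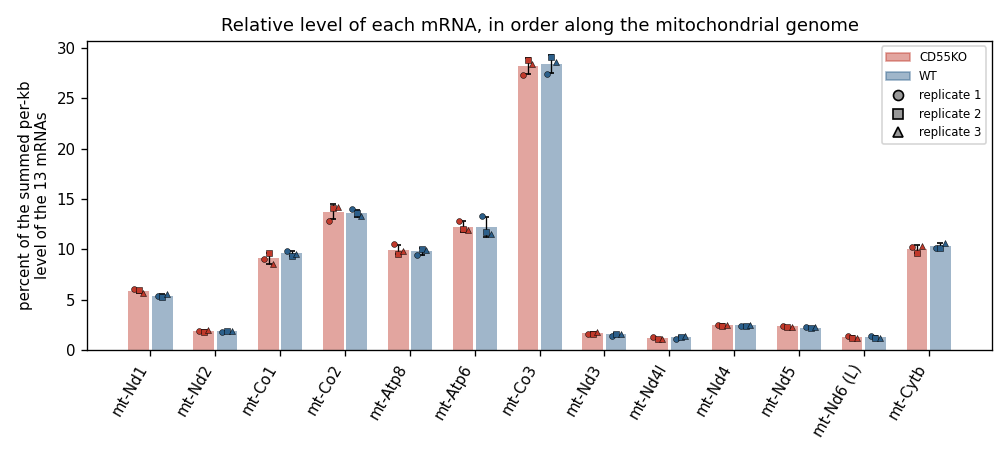
Percent of the 13 mRNAs (counts per kilobase of gene) held by each mRNA, in order along the genome, with CD55KO left of WT. Bars are group means with SD (n = 3 each), symbols are libraries, and L marks the mRNA transcribed from the light strand; mt-Co3 lies at 27.3 to 29.2% in all 6 libraries, and the complex I mRNAs form the low bars, down to mt-Nd4l at 1.09 to 1.40%.

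Some mRNA reads cannot be given to 1 gene. mt-Atp8 and mt-Atp6 share 43 bases (GRCm38, plus strand of the mitochondrial chromosome, coding exons of both), shown here because a read within them belongs to both genes; the capitals mark the start codon of mt-Atp6 and the stop codon of mt-Atp8.
mt-Atp8 and mt-Atp6, chrM:7927-7969: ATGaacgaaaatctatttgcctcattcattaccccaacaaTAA
Counts that were not whole numbers (tolerance 0.005) appeared in all 6 libraries for mt-Co1, mt-Co2, mt-Atp6, mt-Co3, mt-Nd3, mt-Nd4l and mt-Nd4, in 5 for mt-Nd2 and in 1 for mt-Atp8. They appeared in 0 libraries for mt-Nd1, mt-Nd5, mt-Nd6, mt-Cytb, both rRNAs and the tRNAs. The 7 mRNAs with such counts throughout are those with a near-identical copy on nuclear chromosome 1. That copy spans 4663 bases on the minus strand (GRCm38, chr1:24611535-24616197) and holds 7 annotated genes. It took a large part of the counts of some members, which makes the split between member and copy uncertain.

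Gm10925, the copy of mt-Atp6, matches it in all 678 of its bases and had 46746, 33291 and 53935 counts in CD55KO libraries and 24307, 50890 and 40927 in WT libraries. It held 42.9, 46.3 and 46.6% of the summed counts of the pair in CD55KO libraries and 42.3, 44.4 and 45.2% in WT libraries. The first 60 bases of each, which carry the shared stretch above, show that no letter separates them there.
mt-Atp6, chrM:7927-7986, plus strand: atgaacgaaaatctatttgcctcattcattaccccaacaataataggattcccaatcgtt
Gm10925, chr1:24614592-24614651, minus strand: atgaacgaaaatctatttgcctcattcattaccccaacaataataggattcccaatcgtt
Gm29216 matches the last 483 bases of mt-Co1 at 99.8% and held 24.4, 26.3 and 24.2% of that pair's counts in CD55KO libraries and 26.4, 23.6 and 23.5% in WT libraries. The start of the Gm29216 gene model and the stretch of mt-Co1 aligned to it are shown because the 6 differing bases, in capitals, are all at its beginning, and the 479 bases after the last of these are identical.
mt-Co1, chrM:6381-6423, plus strand: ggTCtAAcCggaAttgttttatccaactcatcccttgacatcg
Gm29216, chr1:24616155-24616197, minus strand: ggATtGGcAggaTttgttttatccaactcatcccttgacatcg
Gm28438, the copy of mt-Nd3, differs from it by T3C (position counted from the first base of mt-Nd3), in capitals, and by no base in the 342 that follow, yet held only about 1% of the pair's counts, at 1.27, 1.07 and 1.00% in CD55KO libraries and 1.52, 0.907 and 1.16% in WT libraries.
mt-Nd3, chrM:9459-9491, plus strand: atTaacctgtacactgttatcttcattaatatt
Gm28438, chr1:24613087-24613119, minus strand: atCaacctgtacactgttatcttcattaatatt

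The other copies on chromosome 1 were identical to their members over their whole length and took smaller shares than Gm10925 and Gm29216. Gm28661 (mt-Co2, 681 bases) held 11.2, 10.9 and 10.5% of the pair in CD55KO libraries and 10.7, 8.96 and 9.16% in WT libraries. Gm28437 (mt-Co3, 783 bases) averaged 7.44% in CD55KO and 7.11% in WT, Gm10222 (mt-Nd4l, 294 bases) 5.67% and 5.22%, and Gm28439 (mt-Nd4, 876 bases) 0.535% and 0.540% of their pairs. Identity therefore ran alike over these copies while the share assigned to them ranged from 0.424 to 46.6%. No gene model covers the 233 bases between the copies of mt-Co2 and mt-Atp6 (chr1:24614652-24614884), where the order of the mitochondrial genes would place mt-Atp8. Of 29 nuclear genes with at least 80% identity to a member over 100 bases or more, 12 had 0 counts in every library and 8 had at most 4. The remaining copies, Gm13341 (mt-Co2) and Gm13340 (mt-Co1) on chromosome 2, held under 0.1% of their pairs. All copies together took 0.376, 0.291 and 0.371% of all counts in CD55KO libraries and 0.278, 0.349 and 0.292% in WT libraries (exact permutation test, p = 0.3). None of the copies passed the edgeR test, and 1 had an unadjusted p under 0.05, Gm28661, with 289.6, 226 and 303 CPM in CD55KO libraries and 203, 232 and 206 CPM in WT libraries (log2 fold change 0.35 ± 0.10, SE; adjusted p = 0.247). Adding each copy to its member raised mt-Atp6 to the second place per kilobase, at 18.9% of the 13 mRNAs, and left mt-Co3 first at 26.1%. The alternative was chosen after seeing the data. With copies added, the relative levels of mt-Nd1 and mt-Nd5 did not overlap as percent of counts, but per kilobase those of mt-Nd5 did (exact permutation test, p = 0.2).

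**Figure D5:**
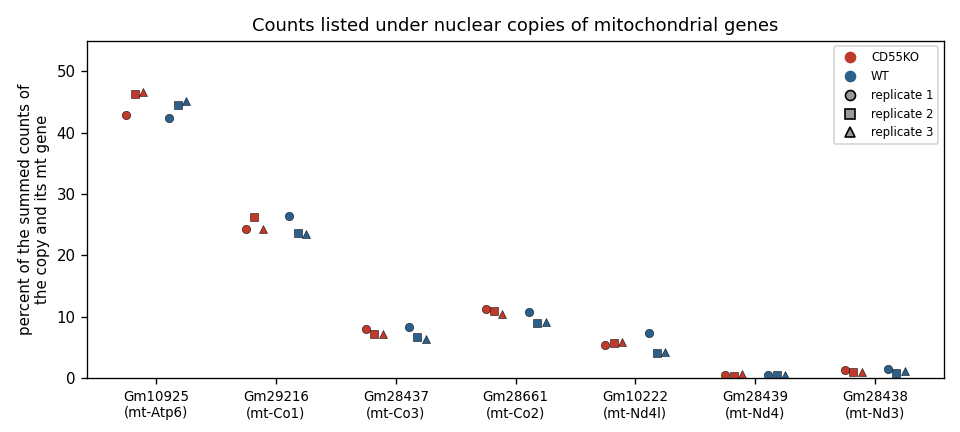
Percent of the counts of each member and its chromosome 1 copy that were assigned to the copy, by library, CD55KO left of WT. The share lies at 42.3 to 46.6% for the mt-Atp6 pair and near 0.5% for the mt-Nd4 pair, and the genotypes overlap in each pair. Symbols are libraries, their shape gives the replicate number.

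The tRNAs were barely sampled. They are shorter than the mRNAs, lack a poly(A) tail, and had 170 counts over all 6 libraries; 15 of the 22 had any count, 7 had 0 in every library, and 21 were too low to test. For a tRNA at 0 the data allow a level of up to 3 counts, or 0.0975 CPM in the deepest and 0.150 CPM in the shallowest library. The 3 with the most counts, shown with their anticodon in capitals, held 71.2% of all tRNA counts.
mt-Tq (glutamine), chrM:3772-3842, minus strand: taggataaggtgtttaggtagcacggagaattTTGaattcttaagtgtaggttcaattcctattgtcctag
mt-Tp (proline), chrM:15356-15422, minus strand: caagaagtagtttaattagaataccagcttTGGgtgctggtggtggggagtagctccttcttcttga
mt-Tl1 (leucine), chrM:2676-2750, plus strand: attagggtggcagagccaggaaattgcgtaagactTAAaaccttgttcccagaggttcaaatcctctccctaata
mt-Tq had 11, 11 and 15 counts in CD55KO libraries and 12, 20 and 6 in WT libraries, and was the sole tRNA tested (log2 fold change −0.05 ± 0.53, SE; adjusted p = 0.995, edgeR). mt-Tp had 4, 5 and 0 counts in CD55KO libraries and 3, 9 and 4 in WT libraries. mt-Tl1, which lies between mt-Rnr2 and mt-Nd1, had 2, 3 and 4 counts in CD55KO libraries and 1, 6 and 5 in WT libraries. No other tRNA had more than 5 counts in a library. The 8 tRNAs on the minus strand held 130 of the 170 counts and the 14 on the plus strand held 40. Since strand is not marked, a read over a minus-strand tRNA may come from the uncut plus-strand precursor that runs across it.

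No nuclear gene in the lists of those that build and serve this genome passed the test either. Of 257 tested genes in 12 lists, edgeR called 0 higher and 0 lower in CD55KO libraries, with 13 at an unadjusted p under 0.05, and 27 had libraries that did not overlap. As shares of the 257, both are below the background of 8.60% and 14.1% of all genes. Their median log2 fold change was −0.02, and 101 of 257 lay above 0, against 50.4% of all genes. They share the same libraries and are not 257 separate measurements. None of the 11 mitochondrial transcription genes passed, Polrmt included, with 22.1, 30.95 and 29.1 CPM in CD55KO libraries and 30.02, 31.2 and 34.8 CPM in WT libraries (log2 fold change −0.23 ± 0.12, SE; adjusted p = 0.628, edgeR). Tfb2m, the transcription initiation factor, had a log2 fold change of 0.11 ± 0.099. None of 25 RNA processing genes passed; Rexo2, an exonuclease that degrades short RNA, averaged 39.0 ± 3.05 CPM in CD55KO cells and 47.0 ± 5.23 CPM in WT cells (SD, n = 3 each; adjusted p = 0.410, edgeR). Nsun4, an rRNA methyltransferase, lay the other way at 27.5 ± 2.00 CPM in CD55KO cells and 23.2 ± 2.93 CPM in WT cells (adjusted p = 0.552, edgeR). Neither did any of the 17 replication and nucleoid genes, with the DNA polymerase gene Polg at 13.7 ± 2.31 CPM in CD55KO and 16.1 ± 1.65 CPM in WT cells (SD, n = 3 each; adjusted p = 0.690, edgeR). Lig3, the DNA ligase of mitochondria and nucleus, stood at 15.7 ± 1.91 CPM in CD55KO cells and 13.3 ± 0.52 CPM in WT cells, with libraries that did not overlap (adjusted p = 0.632, edgeR). Among the 17 translation factors, the GTPase gene Mtg2, which acts in assembly of the large ribosomal subunit, had the lowest p in these lists, with 31.97, 26.4 and 29.0 CPM in CD55KO libraries and 35.7, 38.4 and 37.3 CPM in WT libraries (−0.35 ± 0.094; adjusted p = 0.183, edgeR). The libraries did not overlap, yet the threshold was passed only without the count filter (adjusted p = 0.0409, edgeR). Gars, which serves both cytosol and mitochondria, also passed only there (adjusted p = 0.0165, edgeR), and its libraries overlapped. Of the 22 aminoacyl-tRNA synthetases, the 2 named were Vars2 (17.8 CPM in CD55KO and 21.3 CPM in WT, means) and Sars2 (17.7 and 14.7 CPM), with opposite signs.

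The nuclear partners of the mitochondrial subunits were steadier than the mitochondrial mRNAs. The 40 nuclear complex I genes summed to 3886, 4107 and 4063 CPM in CD55KO libraries and 4136, 3894 and 4251 in WT libraries, a 1.09-fold range over the 6 libraries, against 1.45-fold for the 13 mitochondrial mRNAs. The same range was 1.12-fold for complex III, 1.15-fold for complex IV, 1.09-fold for complex V, 1.10-fold for complex II and 1.08-fold for the mitoribosomal proteins. Of the 82 mitoribosomal protein genes, 20 had a log2 fold change above 0, against 50.4% of all genes. Libraries did not overlap for 11 of the 82 (background 14.1%) and 0 passed, with a median log2 fold change of −0.06. These values come from the same 6 libraries, so they are not 82 separate measurements. Mrps25 averaged 41.9 ± 5.49 CPM in CD55KO and 50.6 ± 3.46 CPM in WT cells, and Mrpl38 26.4 ± 0.702 and 31.3 ± 3.19 CPM (SD, n = 3 each; adjusted p = 0.410 and 0.454, edgeR). Atp5b, the catalytic subunit of the ATP synthase, averaged 669 ± 34.4 CPM in CD55KO cells and 748 ± 21.5 CPM in WT cells (SD, n = 3 each; adjusted p = 0.632, edgeR). Ppargc1b, a coactivator of mitochondrial biogenesis, averaged 18.5 ± 1.73 CPM in CD55KO cells and 16.6 ± 0.639 CPM in WT cells (adjusted p = 0.752, edgeR), and 0 of the 9 biogenesis regulators passed.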

How the data were processed

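The authors deposited estimated counts for each gene, unscaled, of which 30.9 to 31.9% per library (nonzero values) were not whole at a tolerance of 0.005. The labels' protocols name the RNeasy micro kit for RNA and the SMARTer Ultra Low RNA kit for libraries. DRAGEN, edgeR and limma are named in the submitters' processing notes, without versions; a genome build and an annotation are not given in those sources.

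Of 55774 rows, 287 repeats of an ID with identical values were removed, and counts were rounded to whole numbers. Shares are percent of all counts of a library. Genotypes were compared with edgeR 4.0.16 (R 4.3.3) over 13794 genes kept by filterByExpr (minimum count 10, minimum total 15), with TMM scaling, robust quasi-likelihood F-tests, genotype alone in the model and Benjamini-Hochberg adjustment at 0.05. Fold changes are CD55KO over WT. DESeq2 1.42.0 and limma-voom (limma 3.58.1) were alternatives. Shares, ratios and relative levels were compared by exact two-sided permutation tests (scipy 1.17.1). The intervals cover counting error only, and reads without molecular identifiers are not independent molecules. The scripts were tested on simulated data. No 2 replicates agreed within sampling noise.

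Positions and sequences were looked up by gene ID in GENCODE M21 (GRCm38), which held 99.5% of the IDs and all 37 members. Nuclear copies were found with blastn 2.17.0 among its transcripts. Named genes are all mitochondrial mRNAs and rRNAs, the 3 tRNAs with the most counts, the copies with at least 10 counts in a library, and from each nuclear list members past the threshold or, with none, from the 2 with the smallest p; Cd55 and Gars stand outside this rule, and Gars was chosen after its values were seen. Results of 2 single nuclear genes are not reported here. The members and lists were chosen with earlier results of these data known.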

Additional observations from a re-analysis of the deposited data

How the results depend on the processing

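Across 473 combinations of a result and an alternative, 440 kept their direction and side of the threshold, 28 reversed and 5 moved; all 28 reversals came from leaving out a library. Under 4 other scalings none of the 15 mRNA and rRNA fold changes changed sign, and under no alternative did one reach an adjusted p of 0.05 (lowest 0.33). The count of all genes called was 55, against 232 with no count filter and 137 with DESeq2. It was 37 to 53 with a library left out, 37 without CD55KO replicate 2, where fewer samples were tested. Among the nuclear lists, 2 genes were called with no count filter and 0 otherwise in the fit as reported; the cause was not tested.

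With a library left out, the difference in share of all counts ranged from 0.0324 to 0.462 percentage points for all mitochondrial genes and from 0.00365 to 0.360 for the mRNAs, and the median log2 fold change of the 13 mRNAs from 0.01 to 0.30. Single log2 fold changes ranged from −0.0687 to 0.15 for mt-Co1, −0.0379 to 0.26 for mt-Co3, −0.19 to 0.17 for mt-Nd4l, −0.0410 to 0.26 for mt-Cytb, −0.0284 to 0.28 for mt-Rnr1 and −0.00050 to 0.28 for mt-Rnr2. The difference in share of all counts ranged from −0.00966 to 0.105 percentage points for rRNA and from −2.47e-05 to 2.48e-06 points for tRNA, and that of the rRNA to mRNA ratio from −0.0125 to 0.0385. As percent of the 13 mRNAs, the difference ranged from −0.0828 to 0.480 points for mt-Co2, −0.0133 to 0.110 for mt-Atp8, −0.176 to 0.536 for mt-Atp6, −0.561 to 0.351 for mt-Co3, −0.0400 to 0.129 for mt-Nd4, −0.482 to 0.0389 for mt-Cytb and −0.0318 to 0.0451 for mt-Nd6. Relative levels that did not overlap numbered 2 to 5 of the 13, the 5 without CD55KO replicate 2 or WT replicate 1. With a library left out, fewer values need to stay apart, so more genes are free of overlap by design. The share of all genes without overlap in these settings is not given here, so the 5 cannot be read against it. The cause of the shifts in this paragraph was not tested.

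In correlations over all genes, a pairing of libraries by replicate number was not evident. Same-numbered libraries correlated at 0.0746, −0.124 and 0.172 in their deviations from the group means, and differently numbered libraries at −0.234 to 0.174. Some measures did run with replicate number in both genotypes. Erythroid sums fell from replicate 1 to replicate 3 (2025, 1567 and 34.7 CPM in CD55KO, 4441, 361 and 101 CPM in WT). So did the follicular B cell marker Fcer2a (232, 143.5 and 113 CPM in CD55KO, 177, 158 and 100.1 CPM in WT). The mt-Nd6 percent was highest in replicate 1 of each genotype, while the share of the 13 mRNAs did not follow the number. With 3 libraries per genotype these values cannot show whether libraries of the same number shared a batch. With the replicate number as a block, 64 genes were called, with 0 mitochondrial members and 0 genes of the nuclear lists among them, and the median log2 fold change of the 13 mRNAs was 0.14. With 170 tRNA counts in all, 21 of 22 tRNAs could not be tested.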
